A study of Mus musculus with 9 samples.

Results

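Cadherins and protocadherins are calcium-dependent adhesion proteins of the cell surface, and they were followed here in cultured mouse cortical neurons under low oxygen, with and without thyroid hormone. The members were taken by symbol, Cdh followed by a number or Pcdh followed by any letters, with more than 1 CPM in at least 3 of the 9 libraries. Of 94 matching genes 84 passed, out of 12923 genes past the same filter in a table of 24054. They comprised 14 classical cadherins, 2 other Cdh genes, 57 clustered protocadherins (14 Pcdha, 21 Pcdhb and 22 Pcdhg) and 11 non-clustered protocadherins.

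The neurons were wild-type C57BL/6 primary cortical neurons after 6 days in culture, and their polyadenylated RNA was sequenced in 3 groups of 3 libraries. The hypoxia with T3 group spent 7 hours in 0.2% oxygen with 10 nM triiodothyronine (T3, the active thyroid hormone) in the medium. The hypoxia group had the same 7 hours of 0.2% oxygen without added T3, and the normoxia group was the control in normal oxygen. The medium of all groups contained B27, a serum-free supplement whose usual formulation itself includes T3. Libraries are named by the number in their column header, 11 to 13 in hypoxia with T3, 7 to 9 in hypoxia and 1 to 3 in normoxia. The labels do not say whether these came from separate cultures. The p-values therefore set group differences against the scatter among these particular libraries, estimated jointly over the 3 groups, and that scatter may be technical.

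Classical cadherins bind the same or a related cadherin on the opposite membrane, and their cytoplasmic tails hold beta-catenin and p120-type catenins, which link them to actin. In the cortex, type I cadherins such as N-cadherin (Cdh2) hold progenitors and synapses together, while type II cadherins mark layers, areas and particular synaptic connections. Clustered protocadherins are made from a tandem array of alternative first exons, each with its own promoter, and give each neuron a surface identity used in self-avoidance. In the alpha and gamma arrays every first exon is spliced to a shared set of constant exons, whereas the beta genes are single-exon genes. The non-clustered delta protocadherins are single genes that regulate axon growth, dendrite form and synapse number.

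The promoters of 4 members are shown as examples. Cdh22 and Cdh24 were the pair that rose in low oxygen, and Cdh9 and Pcdh20 were among those that fell most. Each sequence is the 250 bases before the start of a RefSeq transcript in build GRCm38.p6, read 5′ to 3′ on the gene's own strand. The CG dinucleotides are in capitals.
Cdh22: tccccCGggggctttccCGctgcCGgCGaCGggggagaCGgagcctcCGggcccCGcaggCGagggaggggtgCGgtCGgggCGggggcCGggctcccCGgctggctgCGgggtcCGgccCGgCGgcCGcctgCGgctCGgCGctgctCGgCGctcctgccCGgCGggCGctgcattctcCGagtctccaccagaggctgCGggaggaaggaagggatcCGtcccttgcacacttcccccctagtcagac
Cdh24: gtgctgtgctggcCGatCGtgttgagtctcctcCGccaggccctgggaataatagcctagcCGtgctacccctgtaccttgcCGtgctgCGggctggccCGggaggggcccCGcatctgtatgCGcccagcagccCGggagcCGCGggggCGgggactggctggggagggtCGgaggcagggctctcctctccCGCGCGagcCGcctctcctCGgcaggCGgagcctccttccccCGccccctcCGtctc
Cdh9: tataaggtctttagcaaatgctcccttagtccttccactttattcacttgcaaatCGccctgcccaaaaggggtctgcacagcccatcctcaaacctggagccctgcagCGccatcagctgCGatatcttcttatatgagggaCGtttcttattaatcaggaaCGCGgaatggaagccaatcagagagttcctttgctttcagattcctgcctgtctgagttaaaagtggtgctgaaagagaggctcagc
Pcdh20: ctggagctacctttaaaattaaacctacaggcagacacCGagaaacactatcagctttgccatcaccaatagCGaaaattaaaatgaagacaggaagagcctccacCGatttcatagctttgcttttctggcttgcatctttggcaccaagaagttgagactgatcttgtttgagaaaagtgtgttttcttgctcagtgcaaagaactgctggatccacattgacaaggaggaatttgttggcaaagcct
The Cdh22 window lies at chr2:165234738-165234987 on the minus strand, and that of Cdh24 at chr14:54641365-54641614, also on the minus strand. The Cdh9 window lies at chr15:16728665-16728914 on the plus strand and the Pcdh20 window at chr14:88471397-88471646 on the minus strand. Set against the RefSeq gene spans, the Cdh9 and Cdh24 windows lie inside the gene and the Cdh22 window overlaps the gene's start. Only the Pcdh20 window lies wholly before the gene. The Cdh22 window held 30 CG dinucleotides at 77.6% G+C and the Cdh24 window 22 at 72.8%. The Cdh9 window held 6 at 48.0% and the Pcdh20 window 3 at 42.4%, and the median of all 32851 RefSeq promoters was 6 at 52.4%. The 4 windows are examples and not a rule, since genes that also fell had CG-rich windows, with 22 CG dinucleotides in Pcdh10 and 21 in Pcdh17. Strong falls in hypoxia against normoxia went with CG-rich windows too, with 18 in Pcdh9 (log2 change -1.08) and 20 in Cdh8 (-0.82). Pcdh7 (-1.08) and Cdh12 (-0.97) had 7 each.

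RefSeq promoters were listed for 21 of the 84 members and for no clustered gene. The core of the hypoxia response element, ACGTG on either strand, occurred in the 250 bases of 2 of the 21 (Cdh15 and Cdh7), against 18.5% of 27025 genes. The thyroid hormone half-site AGGTCA on either strand occurred in 1 of the 21 (Cdh18), against 15.8% of genes. These matches are letters in a short window only, and for some members the window lies far inside the RefSeq gene span. The Cdh18 window with the half-site is at chr15:23036213-23036462, in a gene span of chr15:22548898-23477491. The Cdh12 window, at chr15:21111202-21111451, lies inside its gene in the same way.

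Depth was 17182338 reads in the shallowest library (hypoxia 7) to 33937842 in the deepest (normoxia 2), as recovered from the deposited values, so 1 read was worth 0.0302 to 0.0565 CPM. The labels were checked on 4 genes. Hypoxia raised the glucose transporter gene Slc2a1 by 2.40 and the pyruvate dehydrogenase kinase gene Pdk1 by 1.78 on the log2 scale. T3 raised the thyroid hormone targets Hr by 2.57 and Klf9 by 1.21, both in rows with values that are not whole reads. The T3 label was thus not checked on any gene with whole reads only. Summed markers of neurons ranged over 5744 to 5819 CPM in hypoxia with T3, 5927 to 6465 CPM in hypoxia and 7672 to 8300 CPM in normoxia. All 13 neuron markers passed the filter, and 4 of them were lower in hypoxia than in normoxia. Astrocyte markers, 8 of 10 past the filter, summed to 265 to 389 CPM in hypoxia with T3, 197 to 402 CPM in hypoxia and 185 to 300.3 CPM in normoxia. Oligodendrocyte lineage markers summed to 133 to 189 CPM in hypoxia with T3, 79.7 to 213 CPM in hypoxia and 41.0 to 144 CPM in normoxia, and progenitor and cell cycle markers to 81.0 to 146, 52.7 to 153 and 18.6 to 111 CPM in the same groups. Endothelial and microglial markers stayed under 2 CPM in sum in all 9 libraries, with Tie1 at 0, and of the fibroblast and meningeal markers 1 of 8 passed the filter. The summed neuron markers were lower in hypoxia than in normoxia, like most members. The median log2 change of the 13 was -0.05, and 9 were not called. For the markers past the filter it was 0.93 in astrocytes, 0.97 in the oligodendrocyte lineage and 0.66 in progenitors and cell cycle. Of these, limma called 0, 1 and 0 higher and none lower. The part of cell composition in the results was not tested. In bulk RNA, fewer neurons and less RNA per neuron cannot be told apart.

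The members differed widely in level. Per kilobase of exon, the mean over the 9 libraries was highest for Pcdhgc3 at 42.6 CPM per kb, followed by Pcdh8 at 41.5, Cdh2 at 34.8 and Pcdhac2 at 30.2 CPM per kb. Pcdhga11 at 24.3, Pcdhgc4 at 23.2 and Cdh13 at 21.8 CPM per kb came next, and Cdh23 was at 0.137 CPM per kb. A GENCODE exon length was found for 83 of the 84 members. Just inside the filter were Cdh15, above 1 CPM in 6 libraries, and Pcdha8, in 7. Just outside were Pcdha4-g, a read-through annotation above 1 CPM in 2 libraries, and Pcdhb1, whose highest value was 0.893 CPM. The other genes outside were Cdh1, Cdh3, Cdh5, Cdh16, Cdh17, Cdh19, Cdh26 and Pcdh12; Cdh1 and Cdh5 are the cadherins of epithelium and of endothelium.

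Many of these genes were lower in low oxygen, and Cdh22 and Cdh24 were higher. By limma with Benjamini-Hochberg adjustment over all 12923 genes, 38 of the 84 members were lower and 2 higher in hypoxia than in normoxia at an adjusted p under 0.05, while 33.6% of all tested genes passed, 19.3% lower and 14.3% higher. The median log2 change of the members was -0.25, and that of all genes was 0.00. By class, those lower were 9 of 14 classical cadherins, 9 of 11 non-clustered protocadherins, 1 of the 2 other Cdh genes and 19 of 57 clustered protocadherins. The median change was -0.64 in classical cadherins, -0.49 in non-clustered protocadherins and -0.20 in clustered ones. In 50 of the 84 members (59.5%) the 3 hypoxic libraries did not overlap the 3 normoxic ones, as in 47.8% of all tested genes. Log2 changes are of the value plus 1 CPM, which understates the change of genes at low levels.

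**Figure D1:**
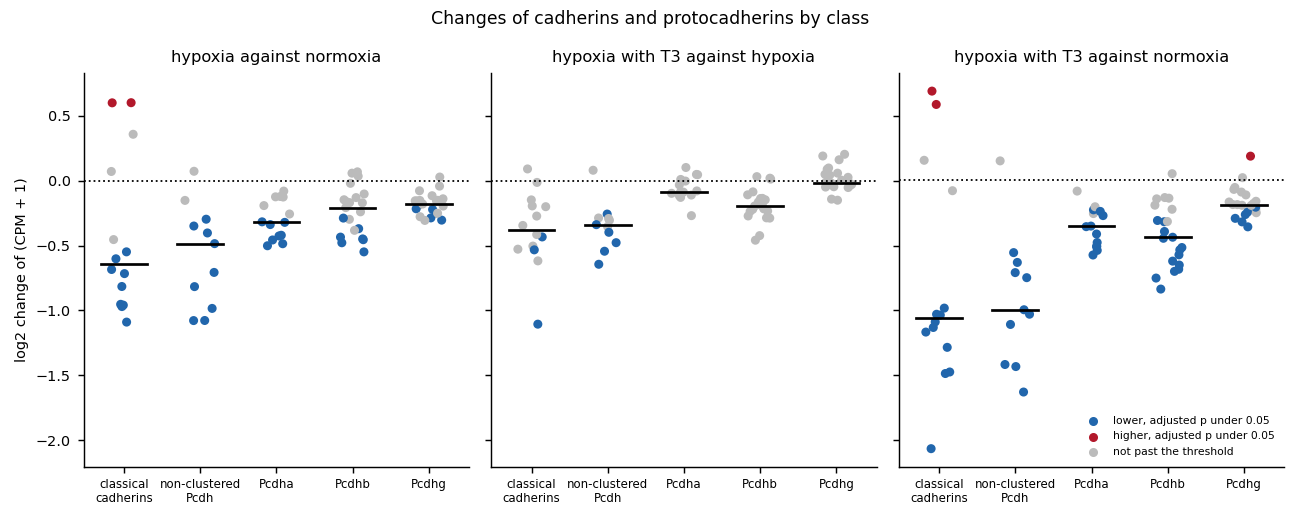
Log2 change of (CPM + 1) of each cadherin and protocadherin by class, for hypoxia over normoxia (left), hypoxia with T3 over hypoxia (middle) and hypoxia with T3 over normoxia (right). Each point is 1 gene, colours mark adjusted p under 0.05, and horizontal bars are class medians. The lowest values are those of classical and non-clustered genes, and of the 5 classes drawn the Pcdhg median lies nearest to 0 in each panel. The panels share libraries and are not independent.

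Among the type I cadherins, Cdh2 fell. Cdh2 had 244, 296 and 235 CPM in hypoxia, against 424, 365 and 386 CPM in normoxia, a log2 change of -0.60 (SE 0.11, adjusted p = 0.0024). The hypoxic and normoxic libraries of Cdh2 did not overlap. Cdh4, or R-cadherin, averaged 31.9 ± 6.40 CPM in hypoxia and 24.3 ± 1.52 CPM in normoxia (SD, n = 3 each) and did not pass by limma (log2 change 0.36, adjusted p = 0.052). It passed upward in 6 of the 20 alternatives, among them edgeR (adjusted p = 0.032), DESeq2 (0.014), equal column sums (0.016) and leaving out hypoxia 7 (0.0036), and its highest adjusted p was 0.18, without hypoxia 8. Cdh15, the muscle cadherin, stayed near 1 CPM in hypoxia and in normoxia.

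Of the 11 type II cadherins, 8 fell and 2 rose. Cdh9, known for its role at mossy fibre synapses of the hippocampus, had 1.58, 1.62 and 1.91 CPM in hypoxia, against 5.87, 4.95 and 3.64 CPM in normoxia. Its log2 change was -1.09 (SE 0.15, adjusted p = 0.00054). Cdh6, a marker of cortical areas and retinal circuits, had 10.3, 11.1 and 8.97 CPM in hypoxia, against 20.1, 20.3 and 20.9 CPM in normoxia (log2 change -0.95, SE 0.11, adjusted p = 0.00021). Every hypoxic value of both genes lay below every normoxic one, and Cdh6 varied by less than 1 CPM among the normoxic libraries.

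Cdh12 and Cdh18, a pair of brain-expressed type II cadherins, also lost close to 1 log2 unit. Cdh12 had 5.48, 4.21 and 3.57 CPM in hypoxia, against 7.58, 9.24 and 12.2 CPM in normoxia (log2 change -0.97, SE 0.19, adjusted p = 0.0037). Cdh18 had 7.06, 8.45 and 5.77 CPM in hypoxia, against 14.7, 13.2 and 15.9 CPM in normoxia (log2 change -0.96, SE 0.22, adjusted p = 0.0069). Neither gene's groups overlapped, though normoxic Cdh12 was itself spread out. Cdh8, which marks cortical areas and layers, averaged 26.0 ± 4.05 CPM in hypoxia and 46.1 ± 2.37 CPM in normoxia (log2 change -0.82). Cdh7 changed by -0.72, Cdh11 by -0.68 and Cdh10 by -0.55, with adjusted p of 0.0070, 0.0057 and 0.030. The call on Cdh10 was lost with equal column sums (adjusted p = 0.098) and without any one of 4 libraries (normoxia 2, normoxia 3, hypoxia 7 or hypoxia 9; adjusted p up to 0.092). Cdh20 averaged 8.15 ± 2.96 CPM in hypoxia and 11.2 ± 2.07 CPM in normoxia and did not pass (adjusted p = 0.20).

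The pair that rose were Cdh22 and Cdh24. Cdh22 had 20.7, 22.7 and 22.6 CPM in hypoxia, against 14.2, 13.1 and 15.1 CPM in normoxia, a log2 change of 0.60 (SE 0.09, adjusted p = 0.00067). Cdh24, first described as binding catenins like other classical cadherins, had 11.9, 13.0 and 12.9 CPM in hypoxia, against 7.87, 8.85 and 7.25 CPM in normoxia (log2 change 0.60, SE 0.09, adjusted p = 0.0011). For both, each hypoxic library exceeded each normoxic one. Both kept their calls under every alternative tried, with log2 changes of 0.49 to 0.73 for Cdh22 and 0.44 to 0.73 for Cdh24.

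The falling type II genes share a location in part. Cdh6 (chr15:13028699-13176407), Cdh9 (chr15:16728550-16857138), Cdh10 (chr15:18818869-19016206), Cdh12 (chr15:20448878-21598421) and Cdh18 (chr15:22548898-23477491) lie along one stretch of chromosome 15 in GRCm38.p6, and all 5 were lower in hypoxia. Cdh8 (chr8:99024471-99417666) and Cdh11 (chr8:102632095-102785493) are neighbours on chromosome 8 and were both lower. Of Cdh7 (chr1:109982237-110145272) and Cdh20 (chr1:104768340-104995481) on chromosome 1, Cdh7 was lower and Cdh20 did not pass. Other genes of these stretches are not shown. Cdh22 (chr2:165111501-165234924) and Cdh24 (chr14:54631231-54642067) lie on separate chromosomes.

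**Figure D2:**
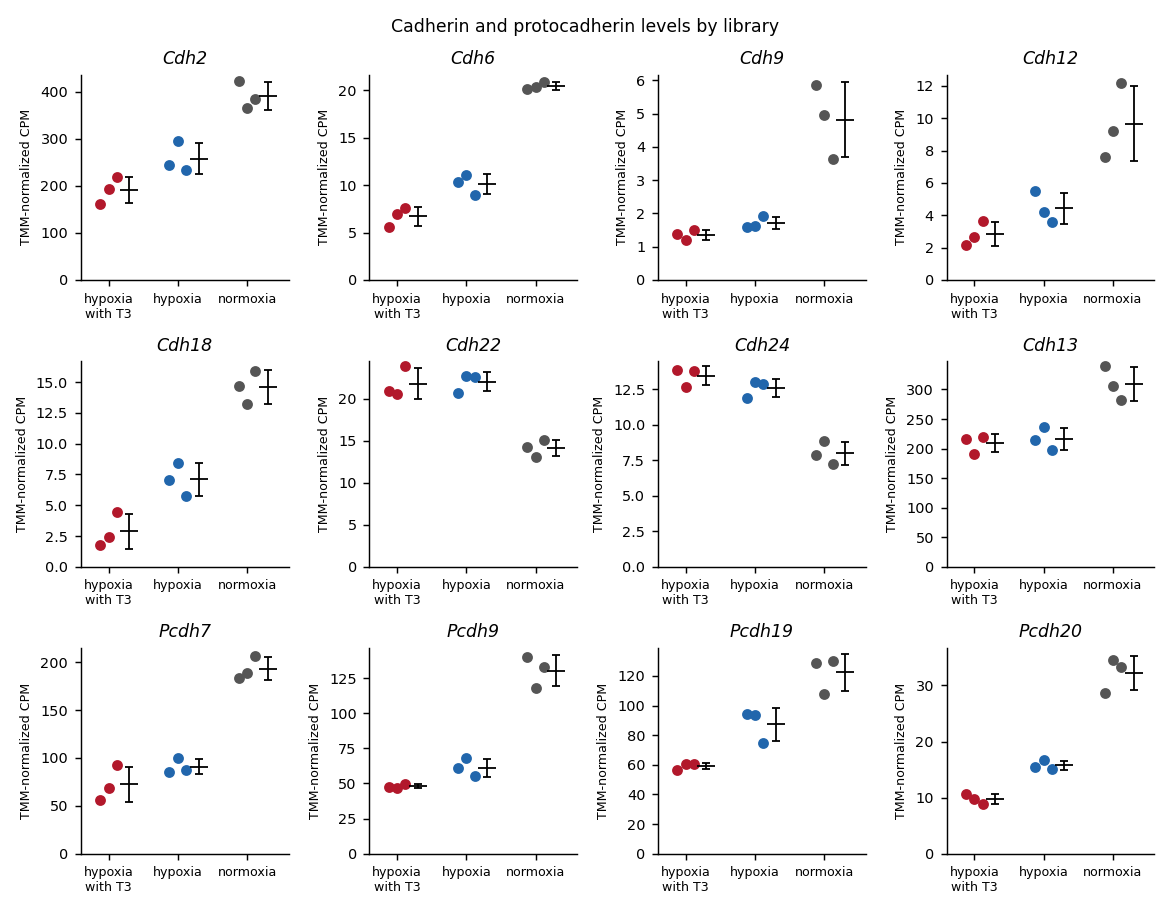
TMM-normalized CPM of 12 members in each library, in hypoxia with T3, hypoxia and normoxia; points are libraries, and the bars beside them are the mean and SD of 3. Cdh22 and Cdh24 are lowest in normoxia, and the other 10 genes are highest there. Of the 12, limma called Cdh2, Cdh6, Cdh18, Pcdh9, Pcdh19 and Pcdh20 lower in hypoxia with T3 than in hypoxia.

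Outside the classical class, Cdh13 (T-cadherin, which is held in the membrane by a lipid anchor and has no cytoplasmic tail) fell. It had 214, 236 and 198 CPM in hypoxia, against 340.4, 306 and 282 CPM in normoxia (log2 change -0.52, SE 0.08, adjusted p = 0.0013), with no overlap. Cdh23, which forms the tip links of hair cells with the Pcdh15 protein, averaged 2.61 ± 0.906 CPM in hypoxia and 1.70 ± 0.526 CPM in normoxia and did not pass (adjusted p = 0.14).

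All 4 delta-1 protocadherins, whose long tails include a binding motif for protein phosphatase 1, were lower in hypoxia. Pcdh7 (chr5:57716145-58133236) had 85.8, 100.05 and 87.3 CPM in hypoxia, against 184, 189 and 207 CPM in normoxia. Its log2 change was -1.08 (SE 0.14, adjusted p = 0.00038). Pcdh9 (chr14:93013700-93892834) had 60.8, 67.9 and 55.0 CPM in hypoxia, against 139.7, 118 and 133 CPM in normoxia (log2 change -1.08, SE 0.08, adjusted p = 1.3e-05). No hypoxic library of either gene came near a normoxic one. Pcdh11x, on the X chromosome, averaged 48.9 ± 5.62 CPM in hypoxia and 81.4 ± 17.5 CPM in normoxia (log2 change -0.71), and Pcdh1 averaged 114 ± 7.10 CPM in hypoxia and 151 ± 21.5 CPM in normoxia (log2 change -0.40).

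The delta-2 protocadherins, several of which recruit the actin-regulating WAVE complex, were less uniform, with 3 of 5 lower. Pcdh19, mutated in an X-linked epilepsy of girls and women, changed by -0.49 (adjusted p = 0.0037), Pcdh17, which acts in presynaptic assembly, by -0.35 (adjusted p = 0.014), and Pcdh10, which promotes synapse elimination, by -0.30 (adjusted p = 0.0023). The Pcdh17 call was lost with equal column sums (adjusted p = 0.077) and without hypoxia 9 (adjusted p = 0.053). Pcdh18 averaged 4.81 ± 0.396 CPM in hypoxia and 5.44 ± 0.0313 CPM in normoxia and did not pass (log2 change -0.15, adjusted p = 0.28). Pcdh8, also called arcadlin and induced by synaptic activity, averaged 188 ± 9.84 CPM in hypoxia and 179 ± 15.6 CPM in normoxia and did not pass (log2 change 0.07, adjusted p = 0.47; 0.21 and adjusted p = 0.022 with equal column sums).

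The 2 remaining non-clustered genes were both lower. Pcdh20 (chr14:88464743-88471396), which in mouse helps place neurons in their layer of the somatosensory cortex, had 15.4, 16.7 and 15.1 CPM in hypoxia, against 28.7, 34.6 and 33.3 CPM in normoxia (log2 change -0.98, SE 0.10, adjusted p = 6.5e-05). Pcdh15 (chr10:73096277-74649831), known best from hair cells, had 7.29, 13.4 and 9.38 CPM in hypoxia, against 14.3, 19.8 and 20.4 CPM in normoxia (log2 change -0.82, SE 0.21, adjusted p = 0.012). The Pcdh20 groups lay far apart, whereas the highest hypoxic and lowest normoxic Pcdh15 values nearly met.

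The clustered protocadherins had a median change nearer to 0. Of 57, 19 were lower in hypoxia and none higher by limma (unadjusted p under 0.05 upward in 0, and 0 also by edgeR and by DESeq2), and no isoform changed by more than 0.55 on the log2 scale. The lower isoforms were 8 of 14 Pcdha, 7 of 21 Pcdhb and 4 of 22 Pcdhg, with medians of -0.32, -0.21 and -0.18. Summed over all 57, the level was 1914, 1850.3 and 1756 CPM in hypoxia, against 2293, 2020 and 2031 CPM in normoxia. For the Pcdhg genes alone it was 1145, 1135 and 1078 CPM in hypoxia, against 1362, 1164 and 1198 CPM in normoxia. The class sums did not overlap, but the highest hypoxic and lowest normoxic Pcdhg sums were close. Because alpha and gamma isoforms share their constant exons, reads there can be divided among isoforms by the counting, and single-isoform values are uncertain to that extent.

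The isoforms that fell most came from the alpha and beta arrays. Pcdhb4 had 3.16, 4.10 and 3.37 CPM in hypoxia, against 6.37, 5.11 and 5.47 CPM in normoxia (log2 change -0.55, SE 0.15, adjusted p = 0.018). Pcdha7 had 30.7, 28.5 and 26.6 CPM in hypoxia, against 45.4, 43.1 and 34.8 CPM in normoxia (log2 change -0.50, SE 0.11, adjusted p = 0.0064). Neither isoform's groups overlapped. Pcdha2 had 27.9, 26.6 and 23.2 CPM in hypoxia, against 43.7, 35.1 and 31.8 CPM in normoxia (log2 change -0.49, SE 0.14, adjusted p = 0.023). Pcdhb21 had 4.13, 2.76 and 3.61 CPM in hypoxia, against 5.2, 4.77 and 5.72 CPM in normoxia (log2 change -0.48, SE 0.13, adjusted p = 0.019). These groups also did not overlap, but the calls on Pcdhb4, Pcdha2 and Pcdhb21 were each lost on leaving out single libraries: normoxia 1, hypoxia 7 or hypoxia 9 for Pcdhb4 (adjusted p 0.055 to 0.064), normoxia 1 or hypoxia 9 for Pcdha2 (0.085 to 0.086), and normoxia 3 or hypoxia 8 for Pcdhb21 (0.062 to 0.065). With equal column sums Pcdha2 and Pcdhb21 also missed the threshold (adjusted p = 0.058 and 0.05).

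Several C-type isoforms at the end of the alpha and gamma arrays are expressed in most neurons rather than chosen at random. Pcdhgc3 and Pcdhac2 had the highest levels per kilobase of the clustered members. The C-type isoforms Pcdhac1 and Pcdhgc5 were low, with means of 3.57 and 14.2 CPM over the 9 libraries. Pcdhgc3, which promotes dendrite branching, averaged 227 ± 15.4 CPM in hypoxia and 222 ± 11.5 CPM in normoxia. Pcdhac2, needed for the tiling of serotonergic axons, averaged 171 ± 10.6 CPM in hypoxia and 187 ± 11.3 CPM in normoxia. Pcdhgc4, needed for interneuron survival, averaged 126 ± 11.6 CPM in hypoxia and 141 ± 17.1 CPM in normoxia. None of these 3 passed (adjusted p = 0.75, 0.12 and 0.23), and their log2 changes were 0.03, -0.13 and -0.16; the sign of Pcdhac2 turned with equal column sums (0.01) and that of Pcdhgc3 without normoxia 2 or hypoxia 9. The 5 C-type isoforms made up 30.6, 31.7 and 30.9% of the clustered sum in hypoxia with T3, 28.2, 29.5 and 30.5% in hypoxia and 26.2, 27.1 and 27.5% in normoxia. These shares of CPM did not overlap between any of the groups, though the nearest libraries with and without T3 lay close, and they were not tested.

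**Figure D3:**
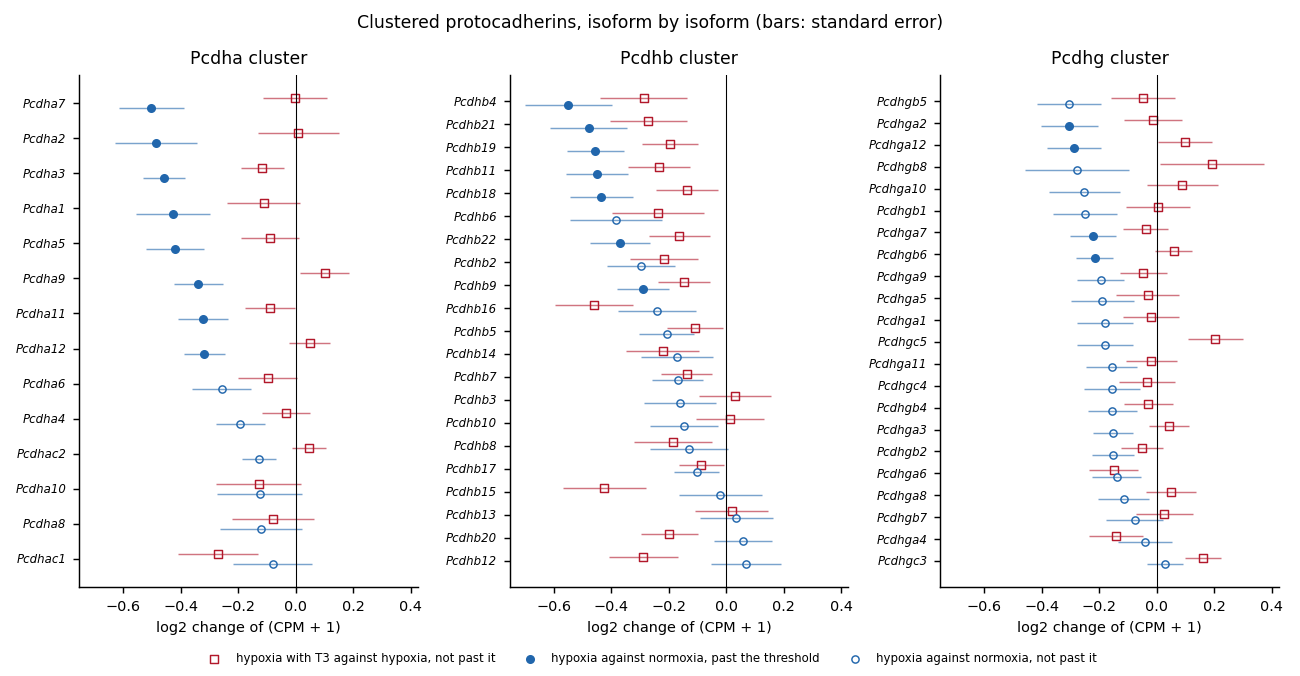
Log2 change of (CPM + 1) with its standard error for each of the 57 clustered protocadherins, for hypoxia with T3 over hypoxia (squares) and for hypoxia over normoxia (circles, filled where adjusted p was under 0.05). The filled circles number 8 in Pcdha, 7 in Pcdhb and 4 in Pcdhg, and no square passed the threshold.

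How far the calls held was then counted by class. Leaving out any single library kept 10 of 11 calls on classical cadherins, 8 of 9 on non-clustered protocadherins and the call on Cdh13, but 8 of 19 on clustered isoforms and 0 of 4 on Pcdhg. Rescaling to equal column sums moved the median change of all genes to 0.13 and kept 26 of the 40 member calls, with 10 of 11 classical, 8 of 9 non-clustered and 7 of 19 clustered. Under that scaling the members' median was -0.12 and 24 members were lower and 4 higher, while 1232 of all genes were lower and 3973 higher, against 2497 lower and 1846 higher as deposited.

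With T3 added to hypoxia, Pcdh20, 4 delta-2 protocadherins, Pcdh9, Cdh2, Cdh6 and Cdh18 were lower. By limma, 9 of the 84 were lower and none higher in hypoxia with T3 than in hypoxia (for the latter, unadjusted p under 0.05 in 1, and 0 by edgeR and by DESeq2), while 6.48% of all genes passed, 3.75% lower and 2.73% higher. The median log2 change was -0.12 in the members and -0.01 in all genes. Of the classes, 3 of 14 classical cadherins, 6 of 11 non-clustered protocadherins and 0 of 57 clustered protocadherins were lower; in the clustered class limma gave 3 at an unadjusted p under 0.05, edgeR gave 0 and DESeq2 gave 1. The groups did not overlap in 24 of the 84 members (28.6%), a share below the 31.7% of all tested genes. The hypoxic libraries serve in this comparison and in the one with normoxia, so both comparisons' values are given side by side and not read against each other.

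The delta-2 genes and Pcdh20 carried most of these calls. Pcdh20 had 10.6, 9.81 and 8.80 CPM in hypoxia with T3, against 15.4, 16.7 and 15.1 CPM in hypoxia (log2 change -0.64, SE 0.10, adjusted p = 0.011). Pcdh19 (chrX:133582860-133689044) had 56.8, 60.5 and 60.6 CPM in hypoxia with T3, against 94.0, 93.7 and 74.4 CPM in hypoxia (log2 change -0.54, SE 0.10, adjusted p = 0.019). In both genes every library with T3 lay below every library without it. Pcdh18 (chr3:49743291-49757383), which in mouse binds the reelin adaptor Dab1, had 3.23, 2.93 and 3.34 CPM in hypoxia with T3, against 5.26, 4.66 and 4.51 CPM in hypoxia (log2 change -0.48, SE 0.10, adjusted p = 0.032). Pcdh17 (chr14:84443563-84537565) had 83.4, 94.7 and 86.7 CPM in hypoxia with T3, against 126, 122 and 103 CPM in hypoxia (log2 change -0.40, SE 0.09, adjusted p = 0.034). These groups were separate too, with hypoxia 9 the lowest hypoxic library in Pcdh18, Pcdh17 and Pcdh19.

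Pcdh9 averaged 48.0 ± 1.34 CPM in hypoxia with T3 and 61.2 ± 6.48 CPM in hypoxia (log2 change -0.34, adjusted p = 0.039), and Pcdh10 averaged 115 ± 7.55 CPM in hypoxia with T3 and 137 ± 1.81 CPM in hypoxia (log2 change -0.26, adjusted p = 0.028). Thus 4 of 5 delta-2 genes, 1 of 4 delta-1 genes and Pcdh20 were lower. Pcdh8 averaged 199 ± 14.8 CPM in hypoxia with T3 and 188 ± 9.84 CPM in hypoxia and did not pass (adjusted p = 0.52). Pcdh1 and Pcdh7 did not pass either, with log2 changes of -0.31 and -0.35 and adjusted p of 0.073 and 0.13.

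Among classical cadherins, Cdh18, Cdh6 and Cdh2 were lower with T3. Cdh18 had 1.78, 2.40 and 4.48 CPM in hypoxia with T3, against 7.06, 8.45 and 5.77 CPM in hypoxia (log2 change -1.11, SE 0.22, adjusted p = 0.023). Cdh6 had 5.61, 6.92 and 7.56 CPM in hypoxia with T3, against 10.3, 11.1 and 8.97 CPM in hypoxia (log2 change -0.53, SE 0.11, adjusted p = 0.028). Cdh2 had 162, 194 and 218 CPM in hypoxia with T3, against 244, 296 and 235 CPM in hypoxia (log2 change -0.43, SE 0.11, adjusted p = 0.045). In all 3 genes T3 library 13 was the highest of its group and hypoxia 8 the highest of the other, and the groups did not overlap. Cdh10 averaged 20.2 ± 5.61 CPM in hypoxia with T3 and 30.8 ± 4.19 CPM in hypoxia and just missed the threshold (log2 change -0.62, adjusted p = 0.052). Cdh22 and Cdh24, higher in hypoxia than in normoxia, had log2 changes of -0.01 and 0.09 with T3 (adjusted p = 0.94 and 0.58), and Cdh13 had -0.04 (adjusted p = 0.79).

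These calls rested on few libraries. None of the 9 held when each library was left out in turn, because without hypoxia 7, hypoxia 8, T3 11 or T3 12 the number of members called was 1, 0, 1 and 0. The number of all genes called fell to 88, 43, 46 and 31 in the same 4 fits, against 838. It was 957 without hypoxia 9 and 1817 without T3 13, where 10 and 12 members were lower. The direction stayed the same: the change of Pcdh20 ranged over -0.70 to -0.58, that of Pcdh19 over -0.65 to -0.49 and that of Cdh18 over -1.39 to -0.89 when single libraries were left out. Pcdh20 lost its call only without hypoxia 8 (adjusted p = 0.057) and without T3 12 (adjusted p = 0.056).

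No clustered isoform passed with T3. Their log2 changes lay between -0.46 and 0.20, with medians of -0.08 in Pcdha, -0.20 in Pcdhb and -0.02 in Pcdhg. The Pcdhb genes together summed to 153, 151 and 162 CPM in hypoxia with T3, against 185, 179 and 167 CPM in hypoxia. These Pcdhb sums did not overlap, although no Pcdhb gene passed on its own. The Pcdha genes summed to 538 ± 10.3 CPM in hypoxia with T3 and 543 ± 36.9 CPM in hypoxia, and the Pcdhg genes to 1144 ± 43.7 CPM in hypoxia with T3 and 1119 ± 36.3 CPM in hypoxia, differences smaller than the spread.

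Set against normoxia, hypoxia with T3 gave the most calls, with 52 of the 84 members lower and 3 higher, while 55.1% of all genes passed, 29.5% lower and 25.5% higher. Lower were 10 of 14 classical cadherins, 10 of 11 non-clustered protocadherins, 31 of 57 clustered protocadherins and Cdh13. The median log2 change was -1.06 in classical cadherins, -0.995 in non-clustered and -0.25 in clustered protocadherins, and 0.00 in all genes. The groups did not overlap in 61 of the 84 (72.6%), and in 62.7% of all tested genes. Cdh18 averaged 2.88 ± 1.42 CPM in hypoxia with T3 and 14.6 ± 1.36 CPM in normoxia, with a log2 change of -2.07 (SE 0.22, adjusted p = 2.5e-05). Pcdh20 averaged 9.72 ± 0.880 CPM in hypoxia with T3 and 32.2 ± 3.08 CPM in normoxia (log2 change -1.63, adjusted p = 6.2e-07), and Cdh6 averaged 6.70 ± 0.991 CPM in hypoxia with T3 and 20.4 ± 0.435 CPM in normoxia (log2 change -1.49, adjusted p = 3.4e-06). The 3 higher members were Cdh22 (0.59), Cdh24 (0.69) and Pcdhgc3 (0.19, adjusted p = 0.023), of which Pcdhgc3 was lost without normoxia 2, T3 11 or T3 12 (adjusted p 0.055 to 0.094) and without a variance trend (0.052). Leaving out any library kept 39 of the 55 calls, with all 12 on classical cadherins, all 10 on non-clustered protocadherins and the 1 on Cdh13, but 16 of 32 on clustered isoforms and 0 of 7 on Pcdhg.

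In the sums over classes, the 11 non-clustered genes gave 725, 730.0 and 746 CPM in hypoxia with T3, 901, 912 and 811 CPM in hypoxia and 1252, 1170.2 and 1272 CPM in normoxia. The 14 classical cadherins gave 297, 346 and 393 CPM in hypoxia with T3, 420.0, 513 and 425 CPM in hypoxia and 678, 623 and 662 CPM in normoxia. In both classes the groups stood in this order without overlap. Cdh2 alone made up most of the classical sums. It averaged 192 CPM in hypoxia with T3, 258 CPM in hypoxia and 392 CPM in normoxia, of class means of 345, 453 and 654 CPM. The 57 clustered genes gave 1837 ± 48.6 CPM in hypoxia with T3, 1840 ± 79.4 CPM in hypoxia and 2115 ± 155 CPM in normoxia, so that both hypoxic groups overlapped each other and lay below normoxia.

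Many neuronal adhesion genes are long, and gene length moved with the change. Of 1986 tested genes that span at least 100 kb in RefSeq, 56.0% were lower in hypoxia than in normoxia (median log2 change -0.33), against 12.6% of 10871 shorter genes (median 0.04). Of the 27 members outside the clusters, 15 of 19 at least 100 kb long were lower (median -0.71), as were 4 of 8 shorter ones. Across all 12857 genes with a span the Spearman rho of span and change was -0.47, and across the 27 members it was -0.43, as a description over genes that share libraries. Single members went against this: Pcdh20 spans 6.65 kb and fell by 0.98, while Cdh4 spans 457 kb and Cdh22 spans 123 kb and had changes of 0.36 and 0.60. For T3 against hypoxia, 15.4% of the long genes and 1.65% of the shorter ones were lower, and among the members these were 5 of 19 long and 4 of 8 shorter genes, with a rho of -0.47 over all genes and -0.11 over the 27 members. The part of gene length in the members' results was not tested.

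**Figure D4:**
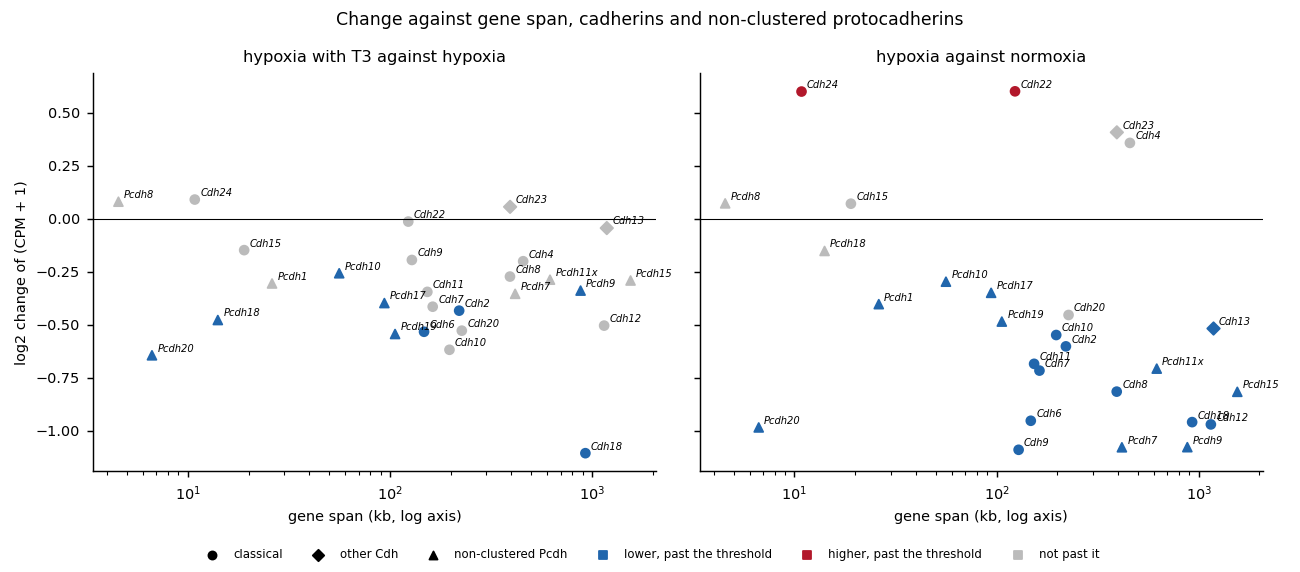
Log2 change of (CPM + 1) against gene span in kb (log axis) for the 27 cadherins and non-clustered protocadherins, for hypoxia with T3 over hypoxia on the left and hypoxia over normoxia on the right. Symbols give the class and colours the call; the long genes Cdh12, Cdh18, Pcdh9 and Pcdh15 lie low on the right, and the short gene Pcdh20 lies low in both panels.

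Genes that work with these proteins were followed in 5 lists, to be read against the 19.3% of all tested genes that were lower in hypoxia and the 3.75% lower with T3 against hypoxia. Of the catenins and their partners, 7 of 10 tested were lower in hypoxia by limma (median -0.46), and the same number by edgeR and by DESeq2. They included Pkp4, a p120-type catenin (log2 change -0.63, adjusted p = 5.6e-05), the neuronal delta-catenin gene Ctnnd2 (-0.78, adjusted p = 0.00031) and the neuronal alpha-catenin gene Ctnna2 (-0.48, adjusted p = 0.00046). Beta-catenin itself (Ctnnb1) averaged 489 ± 20.7 CPM in hypoxia and 448 ± 6.37 CPM in normoxia and did not pass (log2 change 0.13, adjusted p = 0.092). Of this list limma and edgeR called 0 higher in hypoxia, and DESeq2 called 1. In hypoxia with T3 against normoxia, Ctnnb1 was higher by limma (log2 change 0.27, adjusted p = 0.0015). With T3 against hypoxia 1 of the 10 was lower, Pkp4 (-0.30, adjusted p = 0.024).

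Of the 12 tested effectors of protocadherins in the WAVE complex and among focal adhesion kinases, 8 were lower in hypoxia (median -0.24), among them the WAVE gene Wasf1 (-0.49, adjusted p = 0.00013), the kinase gene Fyn (-0.48, adjusted p = 0.0011) and Cyfip2 (-0.30, adjusted p = 0.0012). Of 11 proteases that mature or shed cadherins, 4 were lower and 1 higher (median -0.11). Among the lower were the proprotein convertases Pcsk5 at -0.82 (adjusted p = 0.00064) and Pcsk6 at -0.86 (adjusted p = 0.00086) and the sheddase Adam10 at -0.26 (adjusted p = 0.011). The higher one was the sheddase Adam17 at 0.44 (adjusted p = 0.018). For T3 against hypoxia limma called 0 in either list; an unadjusted p under 0.05 was reached by 7 effectors and 2 proteases, edgeR called 0 and DESeq2 called 2 in each list.

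Of 16 tested genes that govern promoter choice and loop architecture at the protocadherin clusters, 5 were lower in hypoxia by limma (median -0.11). By edgeR 4 were lower and by DESeq2 5. The limma calls included the DNA methyltransferase gene Dnmt3a (-0.42, adjusted p = 0.00048), the cohesin loader gene Nipbl (-0.28, adjusted p = 0.011) and the cohesin subunit gene Stag1 (-0.33, adjusted p = 0.024). Dnmt3b, in the same list and near 1 CPM, did not pass (log2 change 0.13, adjusted p = 0.48). Ctcf, whose protein binds cluster promoters and enhancers, averaged 78.0 ± 4.04 CPM in hypoxia and 76.6 ± 2.93 CPM in normoxia and did not pass (adjusted p = 0.77). With T3 against hypoxia Stag1 (-0.54, adjusted p = 0.019) and Nipbl (-0.27, adjusted p = 0.047) were lower by limma. In this list edgeR called 1 lower and DESeq2 called 2. Of 14 tested genes from the rest of the cadherin superfamily, 4 were lower in hypoxia by limma, 3 by edgeR and 4 by DESeq2. The limma calls were led by the calsyntenin gene Clstn2 (-0.66, adjusted p = 0.00017) and the giant cadherin gene Fat3 (-0.95, adjusted p = 0.0014). With T3 against hypoxia the giant cadherin genes Fat1 (-0.55, adjusted p = 0.034) and Fat4 (-0.49, adjusted p = 0.035) were lower by limma. Of the same 14 genes edgeR called 2 lower and DESeq2 called 3.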

How the data were processed

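The deposited table holds a signal for each gene and library, TMM-normalized CPM made by the authors. The tools were RSEM 1.2.15, Bowtie2 2.1.0 and edgeR (no version), with the mm10 genome, per the submitters' processing notes; the annotation and filters are not given in the sources used here. Per the labels' protocols the libraries were stranded poly(A) mRNA libraries. Values in each column are whole multiples of 1 read, within 0.01 reads, in 99.89% to 99.996% of cells, which gave the reads per library. The 35 rows with values off that step held no member, and 1 column without a name, with 4 numbers, was not used. Values off the step numbered 22 to 27 per library in hypoxia with T3, 18 to 25 in hypoxia and 1 to 4 in normoxia.

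Genes above 1 CPM in at least 3 libraries were tested with limma 3.58.1 in R 4.3.3 (lmFit, eBayes with trend, all 9 libraries in one fit) on log2 of the value plus a pseudocount of 1, two-sided, with Benjamini-Hochberg adjustment over 12923 genes and a threshold of 0.05. Recovered reads are not molecules, so depth bears on counting error only. On recovered reads, edgeR 4.0.16 quasi-likelihood called 4288, 752 and 7093 of 12888 genes for hypoxia over normoxia, T3 over hypoxia and T3 over normoxia; DESeq2 1.42.0 called 4456, 1728 and 7073. The other alternatives were pseudocounts, filters, scalings, no variance trend, only the groups compared, and leaving out each library. The limma and edgeR steps were tried on simulated counts for hypoxia against normoxia only, and not for T3 against hypoxia. Column numbers do not match replicate numbers of the titles, so libraries were not paired.

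The members and lists were chosen with earlier results of these data known. Named genes are the cadherins and non-clustered protocadherins past the threshold in hypoxia against normoxia or T3 against hypoxia, the 4 most changed clustered ones, the 3 most abundant of each class, those nearest the filter, up to 3 per pathway list, and 4 label checks. Cdh4, Cdh20, Pcdhga11, Pcdhac1, Pcdhgc5, Ctnnb1, Adam17, Dnmt3b, Ctcf, Fat4 and the genes at the filter's far side fall outside this rule and were named after their values were seen. Gene spans and promoters are from RefSeq GRCm38.p6, the assembly of mm10, and exon lengths from GENCODE M21.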

Additional observations from a re-analysis of the deposited data

How the results depend on the processing

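No paired analysis was possible because the hypoxia and T3 columns carry numbers (7 to 9, 11 to 13) that no title uses. With equal column sums, 4 members were higher and 24 lower in hypoxia than in normoxia, against 2 and 38, and 5 were higher in hypoxia with T3 than in normoxia, against 3. For T3 against hypoxia, 9 members were lower, but 2 without a filter on low values, 3 with only the 2 groups fitted and 4 without a variance trend. Leaving out single libraries gave 27 to 37 lower and 2 to 3 higher members in hypoxia against normoxia, 0 to 12 lower and 0 higher in T3 against hypoxia, and 38 to 54 lower and 2 to 4 higher in T3 against normoxia. The cause of these differences was not tested. Other alternatives kept these counts within 1.5 times.

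Signs turned only for named members that were past the threshold in neither version. For T3 against hypoxia, leaving out single libraries moved Cdh13 over -0.11 to 0.022, Cdh22 over -0.078 to 0.024, Cdh23 over -0.14 to 0.23, Pcdha2 over -0.095 to 0.16, Pcdha7 over -0.075 to 0.089 and Pcdhgc4 over -0.11 to 0.037. Pcdha2 was at -0.024 with equal column sums, and Pcdha7 at 0.0062 by edgeR and 0.0019 by DESeq2. For hypoxia against normoxia Pcdhgc3 ranged over -0.016 to 0.081, and Pcdhac2 was at 0.013 with equal column sums, as it was at 0.025 for T3 against normoxia. Over the named members, 53 calls were lost, 9 gained and 758 values kept side and sign on leaving out libraries, and 25 were lost, 8 gained and 967 kept under the other alternatives.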
